A study of Mus musculus with 23 samples.

Results

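The acetylcholine receptor of skeletal muscle and the proteins that gather it under the motor nerve ending are described here through 9 genes, chosen by symbol from the 38924 genes of the count files. They are the receptor subunits Chrna1, Chrnb1, Chrnd, Chrne and Chrng, the scaffold Rapsn, the receptor kinase Musk, its adaptor Dok7 and the agrin receptor Lrp4. RNA was sequenced from quadriceps muscle of C57BL/6 mice in 23 libraries. The 12 wild-type (WT) libraries come from mice aged 4, 7 or 24 months, 4 of each age. Mice named mNKO, which lack Nampt in skeletal muscle, were aged 7 months (4 libraries), and mice named MCK-NamptOE, which overexpress Nampt in skeletal muscle, were aged 4 months (3 libraries) or 24 months (4 libraries). All mice ate standard chow, and some had glucose and exercise tolerance tests. MCK is the usual abbreviation of muscle creatine kinase, whose promoter is active in striated muscle; the driver of the deletion in mNKO mice and the sex of the mice are not given in the sources used here. Nampt makes nicotinamide mononucleotide, the precursor of the coenzyme NAD.

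In an innervated fibre the adult receptor is a pentamer of α1, β1, δ and ε subunits, and the fetal receptor carries γ in the place of ε. Chrng is normally expressed in developing muscle, is replaced by Chrne after birth, and is known to return after denervation and in regenerating fibres. Agrin from the nerve binds Lrp4, which activates Musk. Dok7 binds and sustains active Musk, and Rapsn anchors the receptors in clusters.

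Counts on genes per library ran from 14900674 to 22755930 at 7 months and from 2032544 to 3443762 in the 4- and 24-month libraries. The 9 genes together had 1617 to 8802 counts per library in the deeper set and 156 to 382 in the shallower. The targeted gene Nampt stood at 119 ± 11.8 (SD, n = 4) CPM (counts scaled to a common library size) in WT and 18.6 ± 4.51 in mNKO muscle (edgeR's log2 fold change -2.68, SE 0.18, adjusted p = 3.62e-06), and its log2 fold change in MCK-NamptOE was 4.53 at 4 months and 4.92 at 24 months. The tissue label was checked against 12 markers of mature fibres, whose summed level was 115866 to 295562 CPM in the 7-month libraries and 133090 to 175419 CPM in the others. RNA was extracted with different reagents at 7 months and at 4 and 24 months. The sets were therefore tested apart, and between them age cannot be told apart from extraction and depth. Fold changes, standard errors and adjusted p-values (Benjamini-Hochberg over all genes tested) come from edgeR's quasi-likelihood test unless another source is named, and a gene was called at an adjusted p below 0.05.

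Setting mNKO beside WT muscle at 7 months shows how transcripts of the receptor and its cluster stood after loss of Nampt. Transcripts of 4 receptor subunits were higher in mNKO muscle, with Chrng the furthest from WT, while the adult subunit Chrne did not pass the test. Dok7 was the other gene called, by a small margin, and Musk, Rapsn and Lrp4 were not called. In all, 5 of the 9 genes were called, each of them higher, and 53.1% of all 13140 genes tested were called, 28.6% as higher. Chrng passed the filter on low counts only through the mNKO libraries, so its call adds nothing to that count. In whole muscle, more RNA per fibre nucleus and more fibres or nuclei that express a gene cannot be told apart.

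Chrng encodes the fetal γ subunit. The gene (ENSMUSG00000026253.8) lies on chromosome 1 from 87204657 to 87212694 on the plus strand (GRCm38, which is mm10; 12 annotated exon blocks). WT libraries held 1, 4, 1 and 11 counts, or 0.0572, 0.234, 0.0565 and 0.660 CPM in replicates 1 to 4. The mNKO libraries held 532, 337, 360 and 330 counts, or 21.8, 20.4, 14.8 and 16.4 CPM. All mNKO libraries stood far above all WT libraries, and WT replicate 4 held 11 of the 17 WT counts. Its log2 fold change was 6.18 (SE 0.44, adjusted p = 8.49e-06), and 7.24 without WT replicate 4.

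Chrna1 encodes the α1 subunit, which forms most of the acetylcholine-binding site and is present in both forms of the receptor; it (ENSMUSG00000027107.3) lies on chromosome 2 from 73563215 to 73580338 on the minus strand. It stood at 13.5, 15.5, 9.95 and 18.7 CPM in the WT libraries and at 166, 98.0, 66.3 and 92.3 CPM in the mNKO libraries. The groups did not overlap, and mNKO replicate 1 was well above the other mNKO libraries. On the log2 scale the difference was 2.88 (SE 0.30, adjusted p = 4.65e-05), a 7.35-fold difference. Chrnd, which encodes the δ subunit and is the neighbour of Chrng on chromosome 1 (ENSMUSG00000026251.7, 87190607 to 87200070, plus strand), stood at 2.0, 3.33, 1.41 and 1.74 CPM in WT and at 27.9, 17.0, 13 and 17.2 CPM in mNKO muscle. These groups did not overlap either, and mNKO replicate 1 was again the highest. Its log2 fold change was 3.14 (SE 0.31, adjusted p = 2.62e-05), or 8.84-fold.

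Chrnb1, the gene of the β1 subunit (ENSMUSG00000041189.9, chromosome 11, 69784036 to 69795943, minus strand), moved less. WT libraries stood at 21.6, 33.4, 30.5 and 33.8 CPM and mNKO libraries at 76.4, 67.9, 44.0 and 83.8 CPM. Its groups did not overlap, the lowest mNKO library being replicate 3. The log2 fold change was 1.19 (SE 0.21, adjusted p = 6.95e-04), or 2.28-fold. These 4 subunits were the members whose WT and mNKO libraries did not overlap, which was also so for 50.1% of all genes tested.

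Chrne encodes the adult ε subunit and lies on the same chromosome (ENSMUSG00000014609.10, chromosome 11, 70614883 to 70619216, minus strand). Its values were 15.1, 20.9, 14.4 and 13.8 CPM in WT and 16.7, 18.7, 14.7 and 17.2 CPM in mNKO muscle. The groups overlapped over most of their range. The log2 fold change was 0.07 (SE 0.15, 95% interval -0.31 to 0.45, adjusted p = 0.740), so a change of the size seen in the other subunits lies outside the interval. Whether Chrne is called depends on the scaling: with libraries scaled to their total counts, it was 0.60 higher in mNKO muscle and called (adjusted p = 0.00378). The median of all genes was then 0.538, and Chrnb1, the least changed of the other subunits, was 1.71 higher.

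**Figure D1:**
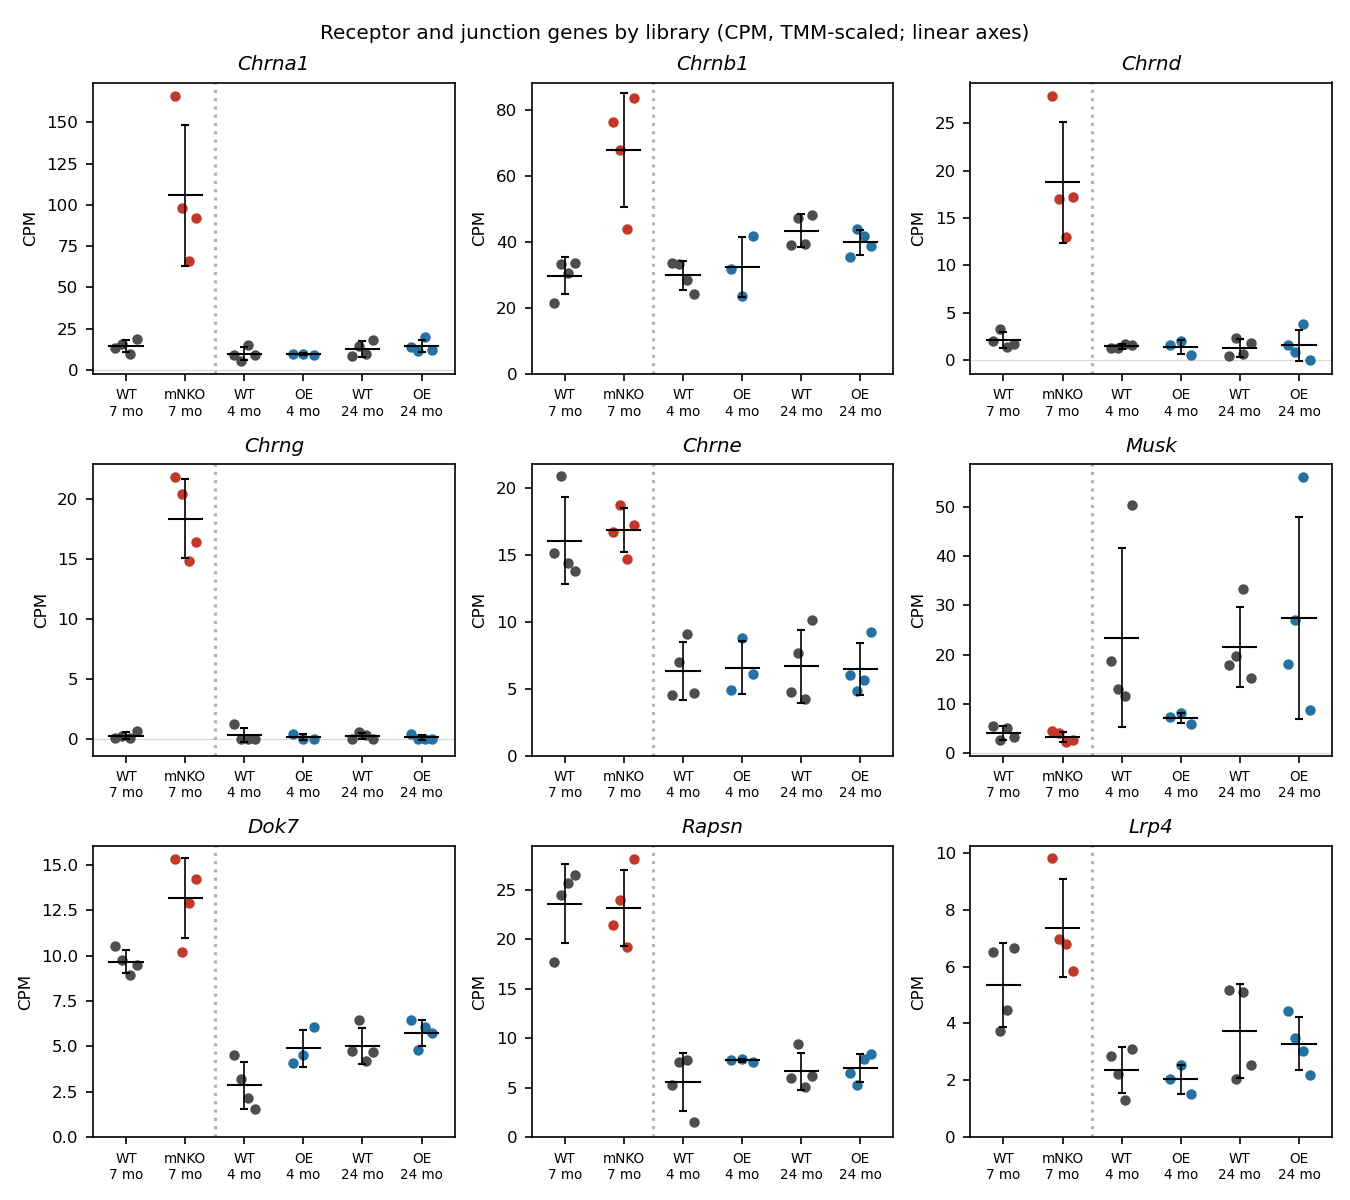
Level of each gene in every library, in CPM on linear axes; points are libraries, horizontal bars the group mean and whiskers 1 SD (n = 4, OE at 4 months n = 3), and the dotted line parts the sets with different extraction reagents. In the 4 mNKO libraries Chrna1, Chrnb1, Chrnd and Chrng stand above the WT libraries of the same age, and Chrne does not.

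The stretches of 250 bases before the RefSeq start sites (GRCm38.p6) are shown for the called subunits that RefSeq's promoter table holds and for Chrne, because the fetal and the adult subunit parted in mNKO muscle. They run 5′ to 3′ on the strand of each gene, and capitals mark matches to the E-box CANNTG, the site type that myogenic basic helix-loop-helix factors bind, and to CCGGAA, the core of the N-box, a site type that Ets factors bind at synaptic genes. Both strands were searched, and every CAGCTG is also a CANNTG.
Chrng, chr1:87205561-87205810, plus strand: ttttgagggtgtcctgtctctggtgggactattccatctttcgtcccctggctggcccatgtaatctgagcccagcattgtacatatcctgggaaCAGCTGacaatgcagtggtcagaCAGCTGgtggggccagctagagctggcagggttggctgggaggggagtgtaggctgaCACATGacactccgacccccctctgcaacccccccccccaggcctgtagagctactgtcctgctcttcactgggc
Chrna1, chr2:73580339-73580588, minus strand: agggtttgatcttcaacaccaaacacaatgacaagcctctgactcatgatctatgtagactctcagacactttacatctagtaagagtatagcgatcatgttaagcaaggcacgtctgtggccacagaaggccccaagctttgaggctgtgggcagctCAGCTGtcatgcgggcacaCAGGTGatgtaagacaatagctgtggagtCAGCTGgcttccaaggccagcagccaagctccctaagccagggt
Chrnb1, chr11:69795938-69796187, minus strand: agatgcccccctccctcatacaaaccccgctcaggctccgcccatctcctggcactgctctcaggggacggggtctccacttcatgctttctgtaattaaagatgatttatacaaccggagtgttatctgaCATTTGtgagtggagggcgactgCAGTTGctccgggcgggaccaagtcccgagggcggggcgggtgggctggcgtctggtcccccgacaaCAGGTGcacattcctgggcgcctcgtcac
Chrne, chr11:70619195-70619444, minus strand: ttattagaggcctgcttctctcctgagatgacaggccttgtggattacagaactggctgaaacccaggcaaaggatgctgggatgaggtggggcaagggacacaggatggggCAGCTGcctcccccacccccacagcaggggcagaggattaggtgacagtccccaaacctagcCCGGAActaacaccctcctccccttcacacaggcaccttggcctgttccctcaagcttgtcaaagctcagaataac

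The windows of Chrng, Chrna1 and Chrnb1 each held 3 matches to CANNTG, a number reached by 12.2% of the 32851 promoter windows of this length, and at least 1 match was found in 66.2%. The form CAGCTG occurred at -155 and -132 in Chrng and at -92 and -44 in Chrna1, counted from the start site to the first base of the match. At least 2 such matches were present in 1.26% of all windows. Chrnb1 held CATTTG at -119, CAGTTG at -96 and CAGGTG at -29, and no CAGCTG. Chrne held 1 E-box, of the form CAGCTG, at -138. It also held the N-box core at -76, and 12% of all windows hold that core at least once. Among the other members, Musk held 3 matches to CANNTG, and the windows at the RefSeq starts of Dok7 held 1 and 0. The Chrne window was the only one of these with CCGGAA. A match describes letters in the window and not a bound site. The RefSeq start of Chrng lies within the span that the GENCODE annotation gives the gene. Chrnd, Rapsn and Lrp4 had no entry to print.

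**Figure D2:**
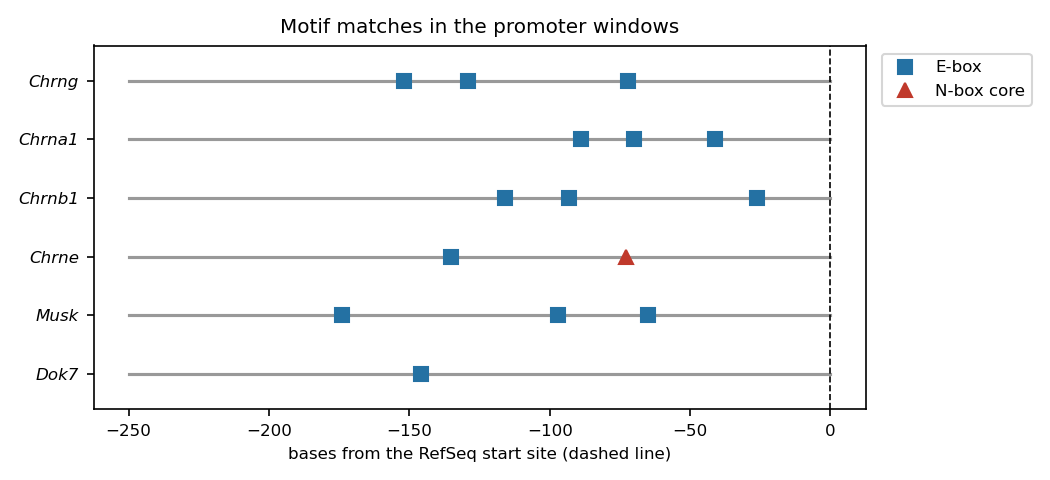
Positions of E-box matches (squares) and N-box core matches (triangle) in the 250 bases before the RefSeq start site of 6 members (the first of the Dok7 windows is drawn); the horizontal axis is the distance in bases from the start site, drawn as a dashed line. Chrng, Chrna1, Chrnb1 and Musk have 3 E-box matches each, and Chrne has 1 and the N-box core.

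The balance of fetal to adult subunit was read as the share of Chrng in the summed counts of Chrng and Chrne, which does not depend on library scaling. In WT muscle at 7 months the share was 0.377, 1.10, 0.391 and 4.56% in replicates 1 to 4. In mNKO muscle it was 56.6, 52.2, 50.1 and 48.9%. Every mNKO library thus held about as many counts of the fetal as of the adult subunit, and the groups were far apart. The exact 95% binomial intervals, which cover counting error only, reached up to 8.02% in the highest WT library and down to 45.1% in the lowest mNKO library. The group means were 1.61 ± 2.0% (SD, n = 4) and 51.9 ± 3.39% (n = 4). With counts divided by the length of the principal transcript (2780 bases for Chrng, 1591 for Chrne), a correction chosen after seeing the data, the mean share was 0.934% in WT and 38.2% in mNKO muscle.

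The mean log2 ratio of Chrng to Chrne, with 0.5 added to both counts, was -6.38 in WT and 0.11 in mNKO muscle, a difference of 6.49. An exact two-sided permutation test gave p = 0.0286, the smallest that 4 against 4 libraries allow, and 0.143 after adjustment over the 5 comparisons made. When only 1 of the 5 comparisons reaches that smallest p, the adjusted value cannot fall below 0.05, however far apart the groups are. The adjusted value therefore cannot decide whether the balance differed. All 4 mNKO libraries lay above all 4 WT libraries.

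**Figure D3:**
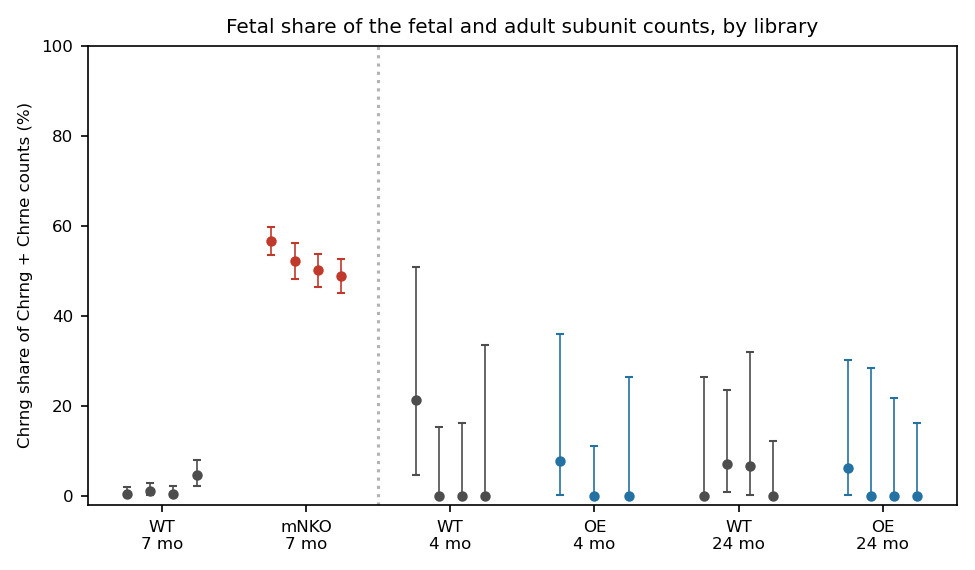
Share of Chrng in the counts of Chrng and Chrne, in percent, for each library by group; whiskers are exact 95% binomial intervals and the dotted line parts the sets with different extraction reagents. The mNKO libraries lie between 48.9 and 56.6% and the WT libraries of the same age between 0.377 and 4.56%, and the wide whiskers at 4 and 24 months come from few counts.

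Per kilobase of principal transcript, the 5 subunit genes summed to 28 ± 4.39 CPM in WT and 79.3 ± 19.2 CPM in mNKO muscle (n = 4 each), with ranges of 23.3 to 33.4 and 54.6 to 101. The make-up of that sum also differed. Chrnb1 had the highest mean level per kilobase in both groups, at 49.3% of the sum in WT and 39.9% in mNKO muscle. In mNKO muscle its lead over Chrna1 was within their spread (31.6 ± 8.03 and 24.1 ± 9.74 CPM per kilobase), and in replicate 1 Chrna1 was the higher, at 37.9 against 35.5. Chrne was next in WT at 36.1% and accounted for 13.8% in mNKO muscle, where Chrna1 took 29.8%, against 11.7% in WT. Chrng made up 0.306% in WT and 8.49% in mNKO muscle, and Chrnd 2.56 and 8.02%. In mNKO muscle the per-kilobase levels of Chrnd (6.42 ± 2.19) and Chrng (6.60 ± 1.18) did not differ beyond their spread. These shares describe transcripts and carry no test.

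Among the clustering genes, Dok7 (ENSMUSG00000044716.6, chromosome 5, 35056766 to 35087839, plus strand) stood at 10.5, 9.76, 8.93 and 9.49 CPM in WT and 15.3, 10.2, 12.9 and 14.2 CPM in mNKO muscle. The mNKO replicate 2 lay within the WT range and the others above it. The log2 fold change of 0.45 (SE 0.15, adjusted p = 0.0241) lost its call without WT replicate 3 (adjusted p = 0.0708), WT replicate 4 (0.0523), mNKO replicate 1 (0.0795) or mNKO replicate 4 (0.0525).

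Lrp4 (ENSMUSG00000027253.9, chromosome 2, 91457511 to 91513779, plus strand) stood at 6.52, 3.74, 4.47 and 6.66 CPM in WT and at 9.82, 6.96, 6.78 and 5.83 CPM in mNKO muscle, where mNKO replicate 4 lay among the WT values. Its log2 fold change of 0.46 (SE 0.23, 95% interval -0.11 to 1.03) did not pass (adjusted p = 0.116). Rapsn (ENSMUSG00000002104.5, chromosome 2, 91035620 to 91045729, plus strand) overlapped throughout, at 17.7, 24.5, 25.7 and 26.5 CPM in WT and 21.4, 24.0, 19.2 and 28.1 CPM in mNKO muscle. Its log2 fold change was -0.03 (SE 0.16, 95% interval -0.43 to 0.37, adjusted p = 0.892). Musk (ENSMUSG00000057280.9, chromosome 4, 58285960 to 58374303, plus strand) stood at 5.55, 2.63, 5.20 and 3.36 CPM in WT and at 4.50, 4.06, 2.26 and 2.64 CPM in mNKO muscle, with a log2 fold change of -0.32 (SE 0.30, 95% interval -1.05 to 0.42, adjusted p = 0.399).

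Scaling bears on all of these. The median log2 fold change of all tested genes was 0.014 with the scaling used (TMM) and 0.538 with total counts, which moved the split of called genes from 3759 higher and 3215 lower to 6779 higher and 927 lower. With total counts, 8 of the 9 members were called, each as higher, against 51.6% of all genes called as higher and 58.6% called in either direction. The added ones were Chrne, Rapsn (0.49, adjusted p = 0.0226) and Lrp4 (0.96, adjusted p = 0.0105). Chrng is again among those called and passed the filter only through the mNKO libraries, so its call adds nothing to that count. Musk changed sign to 0.19 and was not called. Under either scaling, Chrna1, Chrnb1, Chrnd and Chrng kept their calls, and each lay above the median of all genes by more than 1 on the log2 scale. In the authors' deposited table for this comparison, the same 5 of 9 members have an adjusted p below 0.05, among 47.8% of the genes listed, and Chrng has a log2 fold change of 5.97.

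**Figure D4:**
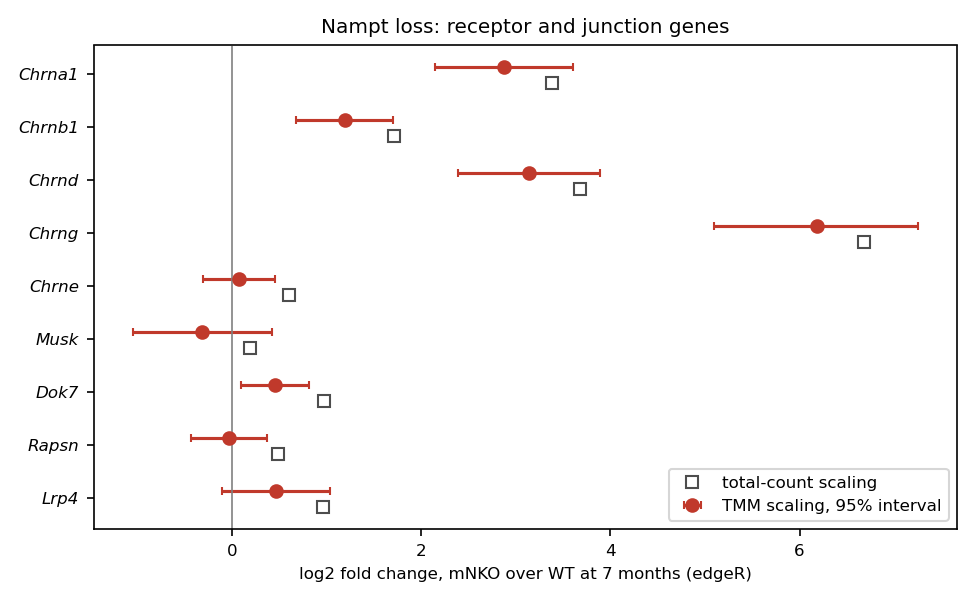
Log2 fold changes of the 9 genes between mNKO and WT at 7 months; circles with bars are edgeR estimates with TMM scaling and their 95% intervals (4 against 4 libraries), squares are estimates with total-count scaling. The 4 subunits from Chrnb1 at 1.19 to Chrng at 6.18 lie clear of 0 under both scalings, and Chrne, Rapsn and Lrp4 are called only under total counts.

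Other genes of the junction were called about as often as genes in general. Of 38 further postsynaptic and basal lamina genes, 36 were tested, 13 were higher and 7 lower, beside 53.1% of all genes called and 28.6% called higher. Their median log2 fold change was 0.34 beside 0.014 for all genes. With total counts 22 were higher and 1 lower, beside 58.6% of all genes called and 51.6% called higher. The medians were then 0.86 and 0.538. Erbb2, a receptor of neuregulin signalling, rose by 1.95 (SE 0.21, adjusted p = 3.12e-05), and Nes (nestin, an intermediate filament found under the endplate and in regenerating fibres) rose by 1.61 (SE 0.22, adjusted p = 1.43e-04). Prkar1a, a regulatory subunit of protein kinase A, rose by 0.82 (SE 0.13, adjusted p = 2.70e-04). The muscle sodium channel gene Scn4a fell by 1.18 on the log2 scale (SE 0.18, adjusted p = 2.97e-04), with means of 364 ± 72.7 CPM in WT and 161 ± 30.8 CPM in mNKO muscle.

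Genes known to respond to denervation and inactivity were also counted. Of 20 such genes, 19 were tested, with 11 higher and 4 lower and a median of 0.91. Of all genes tested, 53.1% were called and 28.6% were called higher. Some of the 11, Sln and Kcnn3 among them, passed the filter through the mNKO libraries. With total counts 13 were higher and 2 lower, beside 51.6% of all genes called higher. The summed level of the list was 960 to 1856 CPM in WT and 772 to 1716 CPM in mNKO libraries. The genes named next from this list have the smallest p, and all of them were higher. Ncam1, a cell adhesion molecule that spreads over denervated fibres, stood at 2.61 ± 0.208 CPM in WT and 16.0 ± 6.55 CPM in mNKO muscle (log2 fold change 2.62, SE 0.26, adjusted p = 2.38e-05). The transcription factors Runx1 and Myog had log2 fold changes of 3.41 and 3.37, and Kcnn3, a calcium-activated potassium channel gene of denervated muscle, which like Chrng passed the filter through the mNKO libraries, had 4.26 from a WT level of 0.0728 CPM. Myog is a factor that binds E-boxes. Of 16 genes of developing and regenerating fibres, 10 were higher and 2 lower, with a median of 2.38. With total counts 13 were higher and 0 lower. Both counts are to be read beside the same shares of all genes. Of the 10, 3 (Myh3, Tmem8c and Gm7325) passed the filter through the mNKO libraries. Myl4, an embryonic myosin light chain gene, stood at 4.05 ± 0.615 CPM in WT and 224 ± 70.6 CPM in mNKO muscle, and Tnnt2, the cardiac and embryonic troponin T gene, at 2.09 ± 0.818 and 82.1 ± 20.6 CPM.

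Of 11 nicotinic subunit genes of the neuronal type, 1 was tested in each set. At 7 months this was Chrnb2, which passed the filter through the mNKO libraries, with 8 counts in WT and 67 in mNKO muscle (log2 fold change 2.67, SE 0.48, adjusted p = 7.64e-04). Chrna9, which was not tested, had 5 counts in WT and 57 in mNKO muscle. At 4 and 24 months it was Chrna2, with 27 counts (2.95 ± 1.92 CPM) in WT and 12 (1.70 ± 1.16 CPM) in MCK-NamptOE muscle at 4 months, and 28 (2.52 ± 2.01 CPM) and 26 (2.66 ± 0.886 CPM) at 24 months; it was called in no comparison (adjusted p = 0.770 to 0.976), and at 7 months it had 4 counts in WT and 0 in mNKO muscle. Chrna3, Chrna6 and Chrnb4 had no count in any library.

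Markers of other cell types were counted in the same comparison, to be read beside the 28.6% of all genes called higher (51.6% with total counts). All 11 macrophage markers were higher in mNKO muscle (median 3.28), and their summed level was 90.0 to 327 CPM in WT and 1038 to 2065 CPM in mNKO libraries. Of 8 satellite cell markers, 7 were tested, 4 were higher and 1 lower (6 and 0 with total counts), and the sum was 70.2 to 81.2 CPM against 133 to 154 CPM. Fibroblast and endothelial markers were higher in 4 of 8 cases (5 with total counts), with sums of 908 to 1088 and 2630 to 4047 CPM. Markers of mature fibres were lower in 7 of 12 cases and higher in 1 (median -0.64), beside 3215 of all 13140 genes called lower. With total counts 4 were lower and 1 higher (median -0.11, beside 0.538 for all genes), beside 927 of all genes called lower. Their sums were 237360 to 295562 CPM in WT and 115866 to 180328 CPM in mNKO muscle. Of 12 Schwann cell markers, 10 were tested and 2 were higher, Pmp22 (1.10) and Egr2 (2.75, which passed the filter through the mNKO libraries), a share below that of all genes called higher, with a median of 0.01 and sums of 95.5 to 145 and 132 to 216 CPM. Of 11 markers of motor axons, 2 were tested and 1 was higher (Syn1, 2.74, which passed the filter through the mNKO libraries, from 0.275 ± 0.118 CPM in WT), and the sums were 2.46 to 5.26 and 3.48 to 5.83 CPM. Chat, which makes acetylcholine in motor neurons, and Isl1, a motor neuron transcription factor, had no count in any library of any group. They therefore say nothing about a difference between mNKO and WT muscle. The part of these cell types in the receptor result was not tested.

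The reverse change, excess Nampt, was examined by setting MCK-NamptOE beside WT muscle of the same age. Of the 9 genes, 7 passed the filter on low counts, and Chrnd and Chrng did not. At 4 months 0 of the 7 were called by edgeR, 0 were called by DESeq2, and Musk alone had an unadjusted p below 0.05; 0.0109% of the 9144 genes tested were called by edgeR, which is Nampt itself. At 24 months 0 of the 7 were called by either tool, none had an unadjusted p below 0.05, and again 0.0109% of genes were called.

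Chrnb1, the best measured receptor gene in this set, stood at 33.6, 33.4, 28.5 and 24.4 CPM in WT and at 32.0, 23.7 and 41.9 CPM in MCK-NamptOE muscle at 4 months. The groups overlapped, with a log2 fold change of 0.08 (SE 0.18, 95% interval -0.31 to 0.48). At 24 months it stood at 39.0, 47.3, 39.3 and 48.2 CPM in WT and at 35.4, 44.0, 41.9 and 38.7 CPM in MCK-NamptOE muscle (-0.12, 95% interval -0.47 to 0.23). Both intervals end below the log2 fold change of 1.19 seen between mNKO and WT. For Chrna1 the values were -0.01 (95% interval -0.70 to 0.68) at 4 months and 0.18 (-0.39 to 0.75) at 24 months, and for Chrne 0.09 (-0.66 to 0.83) and -0.06 (-0.74 to 0.63).

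Dok7 was 0.70 higher at 4 months (95% interval -0.06 to 1.47, adjusted p = 0.959) and 0.19 higher at 24 months (-0.43 to 0.80). Rapsn differed by 0.42 (-0.31 to 1.15) and 0.06 (-0.60 to 0.72), and Lrp4 by -0.15 (-1.21 to 0.92) and -0.16 (-0.98 to 0.67). Dok7, Rapsn and Lrp4 had 17 to 81 counts per group, and differences of any size within these intervals are not excluded. In WT at 4 months, MCK-NamptOE at 4 months, WT at 24 months and MCK-NamptOE at 24 months, Rapsn stood at 5.57 ± 2.90, 7.75 ± 0.167, 6.66 ± 1.88 and 6.99 ± 1.44 CPM, and Lrp4 at 2.37 ± 0.810, 2.03 ± 0.512, 3.72 ± 1.65 and 3.28 ± 0.929 CPM. Chrne stood at 6.31 ± 2.17, 6.57 ± 1.96, 6.69 ± 2.75 and 6.43 ± 1.94 CPM, with all 4 groups overlapping. Chrnd had 14, 12, 16 and 16 counts in the same order of groups.

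Musk spread widely within 3 of these 4 groups. At 4 months it stood at 18.8, 13, 11.7 and 50.3 CPM in WT and at 7.39, 8.17 and 6.05 CPM in MCK-NamptOE muscle. The groups did not overlap, which was so for 5.29% of all genes tested and for no other member. The log2 fold change was -1.61 (SE 0.73, adjusted p = 0.959), and -0.97 without WT replicate 4. At 24 months it stood at 17.9, 19.7, 33.3 and 15.2 CPM in WT and at 18.1, 27.0, 55.9 and 8.80 CPM in MCK-NamptOE muscle, a log2 fold change of 0.35 (SE 0.55, adjusted p = 0.932). There the groups overlapped for all members, while 4.69% of all genes did not overlap. Without the filter on low counts edgeR called Musk at 4 months (-1.60, adjusted p = 1.30e-07), a call that neither DESeq2 nor the filtered test made.

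Age was compared within each genotype, 24 against 4 months. In WT muscle 0 of 7 members were called by edgeR or DESeq2, and 0.153% of all genes were called by edgeR. Chrnb1 was the member with the smallest unadjusted p: its libraries at 24 months all lay above those at 4 months, a lack of overlap shared by 5.40% of all genes tested. The log2 fold change was 0.53 (SE 0.16, unadjusted p = 0.00327, adjusted p = 0.276). Dok7 stood at 4.50, 3.18, 2.16 and 1.56 CPM at 4 months and at 4.77, 6.46, 4.21 and 4.71 CPM at 24 months, where the youngest group's highest library overlapped the older group (0.78, SE 0.32, unadjusted p = 0.0213, adjusted p = 0.483). Chrna1 (0.40), Lrp4 (0.64), Rapsn (0.21), Chrne (0.07) and Musk (-0.05) gave adjusted p-values of 0.729 to 0.992. The median over the 7 members was 0.40 beside 0.003 for all genes.

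In MCK-NamptOE muscle 0 of 7 members were called with age by edgeR or DESeq2, beside 0.733% of all genes by edgeR. Musk (1.91, SE 0.71, unadjusted p = 0.0204, adjusted p = 0.314) and Chrna1 (0.59, SE 0.30, adjusted p = 0.480) did not overlap between ages, as 10.3% of all genes did not with 4 libraries against 3. Chrna1 stood at 9.85, 9.87 and 9.08 CPM at 4 months and at 13.7, 11.8, 20 and 12.3 CPM at 24 months. Without the filter on low counts Musk was called (adjusted p = 7.46e-13). The difference between the age effects of the genotypes was called for 0 of 7 members and 0% of all genes by edgeR; for Musk it was 1.97 (SE 0.92, unadjusted p = 0.0538, adjusted p = 0.868; called without the filter at 2.01e-07). Both age effects and both genotype effects at 4 and 24 months share libraries, so they are not independent.

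The authors' deposited tables for these groups give higher mean counts than the count files do. Over the 4208 genes with a mean above 50, the deposited mean of normalised counts was 4.63 times the mean computed from the count files (4.35 to 4.91 from the 5th to the 95th percentile), and 3.64 to 5.16 times for the members, whereas at 7 months the ratio was 1. The cause was not tested. In the authors' deposited table for age in WT, Chrnb1 has a log2 fold change of 0.70 (SE 0.14, adjusted p = 3.42e-04) and is the 1 member of 8 listed below 0.05, beside 2.09% of all genes listed. In the authors' deposited table for age in MCK-NamptOE, Dok7 (1.0, SE 0.25, adjusted p = 0.00545) and Musk (1.64, SE 0.52, adjusted p = 0.0463) are below 0.05 among 8 members listed, beside 3.59% of all genes, and Chrnb1 has 0.48 (adjusted p = 0.0672). For Dok7 the fit to the count files gave 0.26 (SE 0.31). The authors' deposited tables for MCK-NamptOE against WT have 0 of 9 listed members below 0.05 at 4 months, beside 0.0202% of genes, and 0 of 5 at 24 months, beside 0.240%.

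**Figure D5:**
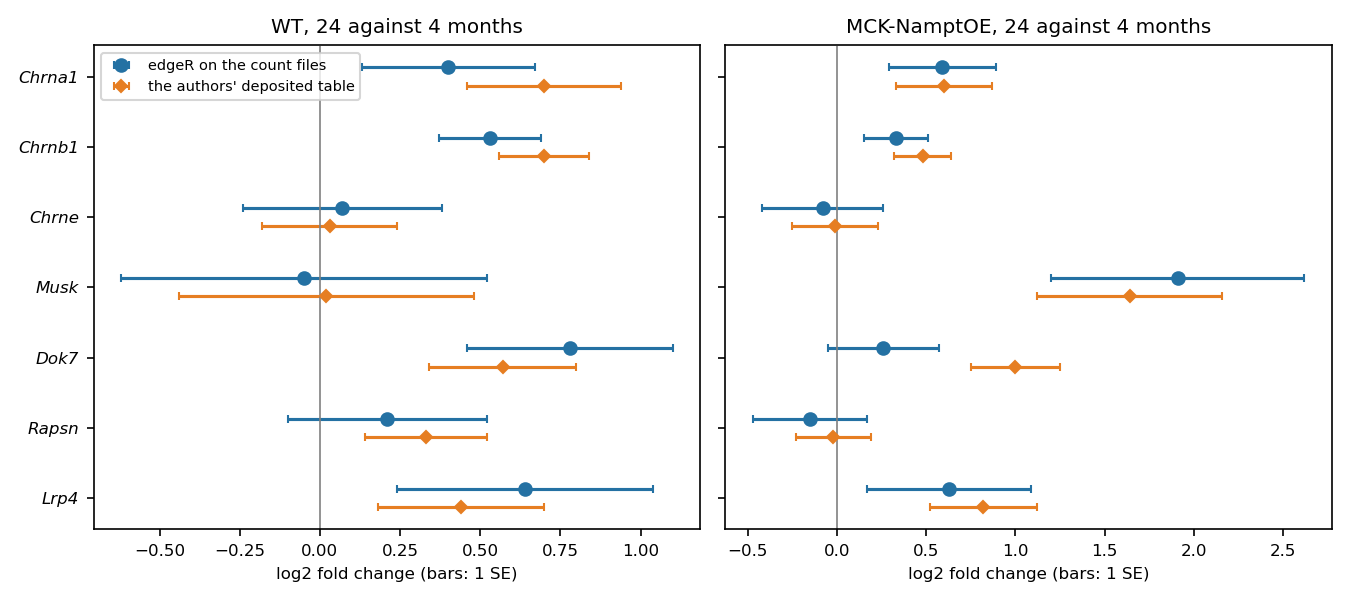
Log2 fold changes from 4 to 24 months for the 7 tested members, in WT (left) and MCK-NamptOE muscle (right); circles are edgeR estimates from the count files, diamonds the values in the authors' deposited tables, and bars are 1 SE. Chrnb1 is at 0.53 and 0.70 in WT, and in MCK-NamptOE muscle Dok7 is at 0.26 and 1.0.

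The fetal subunit was at the limit of detection in all 4 groups at 4 and 24 months. Chrng had 3 counts in WT and 1 in MCK-NamptOE muscle at 4 months, and 3 and 1 at 24 months, against 63, 55, 80 and 62 counts of Chrne. The pooled share of Chrng was 4.55% (exact 95% binomial interval 0.947 to 12.7%), 1.79% (0.0452 to 9.55%), 3.61% (0.752 to 10.2%) and 1.59% (0.0402 to 8.53%) in the same order. All of these intervals lie below the share in mNKO muscle and overlap each other and that of WT at 7 months (1.51%, 0.883 to 2.41%). The exact permutation tests of the log2 ratio gave p = 0.800 for both genotype comparisons and 1.0 for both age comparisons, where 4 against 3 libraries cannot go below 0.0571 and thus cannot pass 0.05.

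Other junction genes gave no calls in these comparisons: 0 of 28 tested were called in each of the 5, with medians of -0.03 to 0.06. Of all 9144 genes tested, 0 to 0.733% were called, so the lack of calls does not set these genes apart. The calls named below are to be read beside the same shares. Scn4a, the most abundant of them, stood at 313 ± 43.5, 299 ± 28.2, 344 ± 29.5 and 301 ± 64.3 CPM in WT and MCK-NamptOE muscle at 4 and then at 24 months. Among the denervation genes the only call was Sln, which encodes the calcium pump inhibitor sarcolipin and stood at 1.03 ± 0.194 CPM (n = 3) at 4 months and 7.42 ± 4.14 CPM (n = 4) at 24 months in MCK-NamptOE muscle (2.84, SE 0.61, adjusted p = 0.0236), having passed the filter through 24-month libraries. Among cell type markers, Col1a1 and Cdh5 fell with age in WT (-1.77 and -0.71) and MCK-NamptOE muscle (-1.85 and -0.85), as did Pecam1 in the latter (-0.75). With total counts Cdh5 lost its call in WT (-0.60, adjusted p = 0.0644).

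Across sets, levels differed in ways that cannot be told apart from extraction. Per kilobase, WT muscle at 7 months had Rapsn at 14.7 ± 2.50 CPM, Chrnb1 at 13.8 ± 2.65, Chrne at 10.1 ± 2.06, Dok7 at 3.48 ± 0.229, Chrna1 at 3.28 ± 0.833, Musk at 1.25 ± 0.422, Chrnd at 0.725 ± 0.288, Lrp4 at 0.675 ± 0.185 and Chrng at 0.0906 ± 0.102. Neighbours in that order whose mean ± SD ranges were apart were Chrne and Dok7, Chrna1 and Musk, and Lrp4 and Chrng; the other neighbours did not differ beyond their spread. In WT at 4 months the order was Chrnb1 (13.9 ± 2.03), Musk (7.01 ± 5.43), Chrne (3.97 ± 1.36), Rapsn (3.47 ± 1.81), Chrna1 (2.26 ± 0.887), Dok7 (1.03 ± 0.464), Chrnd (0.494 ± 0.0816), Lrp4 (0.300 ± 0.102) and Chrng (0.110 ± 0.221), and only Chrnd and Lrp4 were apart by the same measure. Between these WT groups at 7 and 4 months the mean ± SD ranges of Chrnb1 overlapped, while those of Rapsn, Chrne, Dok7 and Lrp4 were lower at 4 months and apart. For Musk these ranges touched, as its spread at 4 months was wide. Every WT library at 4 months (11.7 to 50.3 CPM) nevertheless stood above every WT library at 7 months (2.63 to 5.55 CPM) for Musk. In WT at 24 months Chrnb1 stood higher than at 7 months, at 20.2 ± 2.30 CPM per kilobase.

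The genes whose log2 CPM followed a member most closely over the 23 libraries, each centred on its set's mean, were named for Chrna1, Chrne and Musk among 8801 genes. Chrna1 was nearest to Ahnak2, Lgmn and Myl4 (Pearson r of 0.92 for each), where the mNKO libraries carry most of the spread; within the 15 libraries at 4 and 24 months r was 0.75, 0.53 and 0.52. Chrne was nearest to Ufsp1 (0.74), Rnf19b (0.71) and Chchd5 (0.71). Within the 7-month set r with Chrne was 0.92 for Ufsp1, 0.10 for Rnf19b and 0.40 for Chchd5. Ufsp1, which neighbours Ache in the mouse genome and is on the list of junction genes, stood at 26.4 ± 7.99 CPM in WT and 30.7 ± 2.85 CPM in mNKO muscle at 7 months. Musk was nearest to Sik3 (0.86), Pi4ka (0.85) and Il6st (0.83). The libraries share their depth and extraction within a set, and these values are descriptions picked from all genes.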

How the data were processed

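Messenger RNA was sequenced in 23 mouse quadriceps libraries, grouped by the labelled genotype and age. Poly(A) RNA came from miRNeasy (7 months) or Trizol extracts (4 and 24 months), per the labels' protocols. The authors deposited raw counts per gene for each library and 5 tables of their own tests. In those tables the authors give, per the file headers, a mean of normalised counts (a signal), log2 fold changes with standard errors, a test statistic (a score, not used here), and raw and adjusted p-values. cutadapt 1.4.2, TopHat2, HTSeq, DESeq2, DESeq and build mm10 are named in the submitters' processing notes, without order or settings. Strand is not stated, so antisense reads cannot be separated where Chrne meets 4930544D05Rik and Rapsn meets Gm13778; annotated exons of the first pair share 0 bases and of the second 4.

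Summary lines outside genes (21.53 to 33.5% of a file's total at 7 months, 33.58 to 40.02% otherwise) were left out. Genes were filtered with filterByExpr (13140 and 9144 left), scaled by TMM and tested with edgeR 4.0.16 in R 4.3.3, apart in each set, with 6 and 11 residual degrees of freedom. Standard errors are the log2 fold change divided by the root of F, and 95% intervals use those degrees of freedom. Each title names a separate animal, and p-values measure the spread between these libraries. CPM values are TMM-scaled; lengths come from GENCODE M21. Shares carry exact (Clopper-Pearson) 95% intervals, which cover counting error only. On simulated data with 200 changed genes, 2-fold and 4-fold changes were recovered in 64 and 96% of cases for mNKO against WT (13140 genes). Among 9144 genes, they were recovered in 79 and 94% for genotype at 4 months and 72 and 92% at 24 months. The shares were 73 and 98% for age in WT, 59 and 94% for age in MCK-NamptOE, and 32 and 88% for the difference of the age effects. In the data, genotype at 4 and at 24 months called 1 gene each, age in WT called 14, age in MCK-NamptOE 67 and the difference of the age effects 0. The adjustment is stricter when fewer genes change. The recovered shares can therefore be too high for all of these comparisons.

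Alternatives were DESeq2 1.42.0, total-count and median-of-ratios (RLE) scaling, no filter, another prior count for the balance, and leaving out each library. The members and lists were chosen with earlier results of these data known. Members and Nampt are always named; of each list, up to 4 called genes with the smallest p, or up to 2 of the most abundant where none was called, could be named; for Chrna1, Chrne and Musk, the 3 genes with the highest r are named. The deposited tables name 19905 genes, the annotation named 17990 more, and 1029 stayed unnamed.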

Additional observations from a re-analysis of the deposited data

Results flagged for a closer look

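In 2 of the 50 combinations of a gene and a group of 4 libraries that were checked, a library stood apart from the others. Chance alone flags about 1 in 20, a rate that need not hold for counts near 0. Chrng stood at 1.23 CPM in WT replicate 1 at 4 months, and at 0.403 CPM in MCK-NamptOE replicate 1 at 24 months, while the other libraries of these groups held no count of it. The values rest on 3 counts and 1 count, so 1 count was enough to be flagged.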

How the results depend on the processing

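No paired analysis was possible because the labels give no replicate numbers that link mice of different groups. The calls of Chrna1, Chrnb1, Chrnd and Chrng in mNKO muscle held under each alternative run: DESeq2, both other scalings, no filter, and each library left out. For mNKO against WT, total counts called 8 members and turned Musk to 0.19 and Rapsn to 0.49; leaving out a library gave 4 to 5 members, 6173 to 6843 genes, and -0.14 to 0.05 for Rapsn. Without the low-count filter the genes called were 60 (MCK-NamptOE against WT at 4 months), 130 (at 24 months), 187 (age in WT), 354 (age in MCK-NamptOE) and 106 (difference of the age effects); 1 member, Musk, was called for genotype at 4 months, age in MCK-NamptOE and the difference of the age effects, and the cause was not tested. DESeq2 called 2, 4, 39, 137 and 1 genes in the same order. Total counts turned uncalled values for Chrna1 at 4 months to 0.04 (0.00 without the filter), Rapsn at 24 months to -0.03 and Musk with age in WT to 0.07, and moved the median of all genes to 0.112 for age in WT and -0.125 for the difference of the age effects.

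Leaving out each library in turn, members that were uncalled and changed sign ranged as follows on the log2 scale. For MCK-NamptOE against WT at 4 months, Chrna1 ran from -0.24 to 0.27, Chrnb1 from -0.13 to 0.29 and Chrne from -0.22 to 0.29, with 1 to 2 genes called. At 24 months Chrna1 ran from -0.02 to 0.40, Chrne from -0.27 to 0.19, Musk from -0.27 to 0.65 and Rapsn from -0.06 to 0.29, with 1 to 2 genes called. For age in WT, Chrne ran from -0.19 to 0.27, Musk from -0.36 to 0.59 and Rapsn from -0.05 to 0.40, with 2 (without WT replicate 2 at 24 months) to 9 genes called against 14. For age in MCK-NamptOE, Chrne ran from -0.30 to 0.23, with 11 (without replicate 2 at 4 months) to 87 genes called against 67, and 22 without replicate 1 at 4 months. For the difference of the age effects, Chrna1 ran from -0.09 to 0.41, Chrnb1 from -0.41 to 0.01, Chrne from -0.36 to 0.17 and Lrp4 from -0.23 to 0.21. The Chrng to Chrne log2 ratio differed by 6.13 to 7.18 between mNKO and WT, and by -1.09 to 0.50 (genotype at 4 months), -0.79 to 0.06 (genotype at 24 months), -0.49 to 0.77 (age in WT) and -0.72 to 0.74 (age in MCK-NamptOE); with a prior count of 2 the genotype difference at 24 months was 0.03 and the age difference in MCK-NamptOE 0.07. In groups left with 2 or 3 libraries the spread is shared across the set.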
